A study of Mus musculus with 216 samples.

Results

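The genes Ppp2r5c, Dync1h1, Hsp90aa1, Tecpr2, Rcor1, Traf3, Cdc42bpb and Tnfaip2 lie along mouse chromosome 12, in the stretch between 110 and 112 Mb (mm10). They were chosen by hand because H3K9me3 domains of the residual decay class gather around them in mostly unique sequence, so class counts and unique-sequence shares below are descriptions with no test. All 8 genes were found in GENCODE vM21. The stretch held 32 of the 42890 H3K9me3 domains on chromosomes 1 to 19, X and Y, and 2 of these 32 overlapped a listed gene. Both lay on Tnfaip2, and the bodies of the other 7 listed genes held no domain of any class. The domains gather between the listed genes and on smaller neighbours such as Amn, Lbhd2 and Exoc3l4, so the region is described here both through the listed genes and through the domains beside them.

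The domains come from a ChIP-seq time course in dTKO cells, a line of mouse embryonic stem cells with the genotype Suv39h1fl/fl, Suv39h2-/- and Setdb1fl/fl. These 3 genes encode enzymes that methylate histone H3 at lysine 9. Every sample of the series carries the same genotype and the same treatment, auxin at 100 µg/ml with dTAG13 at 0.5 µM, small molecules that send suitably tagged proteins to degradation. The labels do not name the tagged proteins, and no expression was measured here, so the cell type could not be checked against its markers. Cells were sampled at 0, 1, 3, 12, 24 and 48 h, with the 0 h cells as the baseline. The 216 sequencing runs cover H3K9me3, HP1β and their inputs, with 54 runs for each of these 4 kinds, from 3 biological repeats per time with 3 runs of each library. The authors gave each H3K9me3 domain 1 of 4 classes in words, fast, intermediate, slow or residual. The table holds no value per library or time, so the depth behind a class is unknown and nothing below has an error between cultures. The sources used here do not give the limits between classes.

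H3K9me3 is the histone mark of constitutive heterochromatin, where HP1 proteins bind it and transcription is low. In embryonic stem cells Setdb1 is known for placing it on retroviral repeats and on selected genes, and the Suv39h enzymes for placing it on pericentromeric and dispersed repeats. Housekeeping genes with CpG island promoters, such as that for the dynein heavy chain, are usually free of it.

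Tnfaip2 was the listed gene with H3K9me3 domains. It encodes a protein of the Sec6 family, related to a subunit of the exocyst, which is induced by tumour necrosis factor and takes part in forming membrane protrusions. The gene runs over 12.55 kb at chr12:111442469-111455018 on the plus strand. Its first domain, chr12:111443401-111449700, was residual and 6.3 kb wide. It began 0.932 kb after the gene's start and covered exons 2 to 8 of 13, with 68.7% of the coding sequence. The second, chr12:111451201-111453900, was also residual, was 2.7 kb wide and met exons 12 and 13, with 12.3% of the coding sequence. Together they held 71.7% of the gene body. Another domain of 1.8 kb, chr12:111439801-111441600, ended 0.868 kb before the gene's start and was slow, so a slow domain lay on the promoter side and residual domains lay on the body.

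The wider Tnfaip2 domain was exon over 24.0% of its length, and all 31-base words read in it occur once in the genome (100%). The 300-bp bin of that domain with the most coding bases, chr12:111445801-111446100, is printed as an example of coding sequence inside a residual domain. The class belongs to the whole domain, and no signal is known for the bin alone. The bin is given in the plus strand of GRCm38.p6 from RefSeq, with coding bases in capitals. All of its 300 bases are coding. Its GC content was 67.3% and it held 32 CpG pairs.
Tnfaip2: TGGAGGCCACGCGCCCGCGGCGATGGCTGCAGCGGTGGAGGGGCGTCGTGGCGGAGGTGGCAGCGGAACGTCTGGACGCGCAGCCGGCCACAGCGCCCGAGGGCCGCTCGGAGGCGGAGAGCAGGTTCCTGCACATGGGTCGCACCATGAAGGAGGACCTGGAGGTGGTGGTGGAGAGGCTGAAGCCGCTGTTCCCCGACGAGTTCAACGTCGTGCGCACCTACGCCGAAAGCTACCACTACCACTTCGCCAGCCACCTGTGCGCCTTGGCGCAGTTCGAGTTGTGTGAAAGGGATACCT

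A share as large as that of Tnfaip2 was uncommon. Of 21938 protein-coding genes, 744 overlapped a residual domain, and 614 of those overlapped exactly 1. The median share of the body inside residual domains was 7.87% over the 744 genes, against 71.7% for Tnfaip2. Its region was chosen for residual domains, so this rank is a description. The 744 genes are of all lengths, and a domain takes a larger share of a shorter gene. The neighbour Lbhd2, 5.282 kb long, stood at 100%. There were 56 genes with a larger share, of which 5 were at least as long as Tnfaip2. By number of residual domains Tnfaip2 stood lower, since 64 genes had more than its 2.

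Amn, Lbhd2 and Exoc3l4, which lie on either side of Cdc42bpb, formed a run of residual domains with Tnfaip2. Between the start of Amn and the end of Gm40578 there were 8 domains, 6 residual and 2 slow, spread over 204.9 kb. The 6 residual ones summed to 34.2 kb, or 67.9% of the residual length of the whole stretch. The rest of the stretch held 24 domains, of which 4 were residual (16.7%), 7 slow and 13 intermediate. The limits of the run were set after the domains were seen, so its mix of classes is a description. The next domain past it, 23.7 kb after its last residual one, was intermediate (chr12:111502201-111503400).

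Exoc3l4, another gene of the Sec6 family, lies just before Tnfaip2 at chr12:111417017-111431678. Its residual domain, chr12:111418501-111423300, was 4.8 kb wide, covered exons 2 to 5 of 15 and took in 18.5% of the coding sequence. Residual sequence made up 32.7% of its body. Lbhd2, at chr12:111406809-111412090, lay whole inside the widest residual domain of the stretch, chr12:111402001-111416100, which was 14.1 kb wide. Only 4.75% of that domain was exon, in the 4 exons of the gene. Amn, at chr12:111271095-111276426, encodes amnionless, the partner of cubilin in the receptor for vitamin B12 bound to intrinsic factor. Its residual domain, chr12:111273601-111277800, was 4.2 kb wide and covered exons 4 to 12, with 84.9% of the coding sequence, but not the first exons. In Amn, Exoc3l4 and Tnfaip2 the domain thus began inside the gene, at 2.506, 1.484 and 0.932 kb after its start, and in Lbhd2 it began upstream, at -4.808 kb.

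The next bins are examples of base composition within residual domains, at 3 genes and at 1 place outside genes. They are the plus strand of GRCm38.p6, 300 bases each, with coding bases in capitals, and were picked after the domains were seen. In each gene the bin is the one with the most coding bases. The Amn bin, chr12:111275401-111275700, holds 221 coding bases and 34 CpG pairs at 72.3% GC. The Exoc3l4 bin, chr12:111422101-111422400, is coding throughout and holds 7 CpG pairs at 60.3% GC. The Lbhd2 bin, chr12:111410101-111410400, holds 157 coding bases and 9 CpG pairs at 60.7% GC. The last, chr12:111145801-111146100, is the middle of the residual domain between Rcor1 and Traf3, outside any gene, with 0 CpG pairs at 54.3% GC.
Amn: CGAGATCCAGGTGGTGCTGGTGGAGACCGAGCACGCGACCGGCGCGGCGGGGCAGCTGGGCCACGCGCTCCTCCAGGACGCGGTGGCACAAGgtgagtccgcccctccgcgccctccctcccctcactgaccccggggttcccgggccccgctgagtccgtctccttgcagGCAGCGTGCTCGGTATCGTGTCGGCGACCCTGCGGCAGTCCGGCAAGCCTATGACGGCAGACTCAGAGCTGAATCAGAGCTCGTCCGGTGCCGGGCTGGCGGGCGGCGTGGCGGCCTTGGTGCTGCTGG
Exoc3l4: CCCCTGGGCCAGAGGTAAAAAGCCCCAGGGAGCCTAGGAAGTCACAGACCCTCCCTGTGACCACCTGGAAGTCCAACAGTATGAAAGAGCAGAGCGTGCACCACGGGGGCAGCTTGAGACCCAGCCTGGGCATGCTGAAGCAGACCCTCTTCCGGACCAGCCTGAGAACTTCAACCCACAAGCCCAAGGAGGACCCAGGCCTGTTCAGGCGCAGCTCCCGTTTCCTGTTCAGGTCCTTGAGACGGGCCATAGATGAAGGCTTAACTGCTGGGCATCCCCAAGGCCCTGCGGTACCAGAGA
Lbhd2: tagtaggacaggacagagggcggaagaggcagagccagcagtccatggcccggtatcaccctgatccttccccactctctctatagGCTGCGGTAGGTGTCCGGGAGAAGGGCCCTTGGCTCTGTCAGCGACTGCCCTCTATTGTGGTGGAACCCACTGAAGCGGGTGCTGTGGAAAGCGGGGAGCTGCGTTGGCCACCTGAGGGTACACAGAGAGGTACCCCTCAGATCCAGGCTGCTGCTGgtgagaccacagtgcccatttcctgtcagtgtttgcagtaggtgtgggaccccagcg
Between Rcor1 and Traf3: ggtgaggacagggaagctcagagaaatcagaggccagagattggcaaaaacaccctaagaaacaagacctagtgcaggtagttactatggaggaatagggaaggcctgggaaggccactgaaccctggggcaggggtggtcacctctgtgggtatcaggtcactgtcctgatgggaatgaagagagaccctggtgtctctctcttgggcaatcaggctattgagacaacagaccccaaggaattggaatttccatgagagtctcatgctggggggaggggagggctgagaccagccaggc
CpG pairs were thus plentiful in the Tnfaip2 and Amn bins and few or absent in the others, although all 5 came from residual domains. The middle bin of the slow domain before Lbhd2 held 6, and that of the widest intermediate domain held 15. A single bin, picked in these ways, does not stand for its domain or class.

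**Figure D1:**
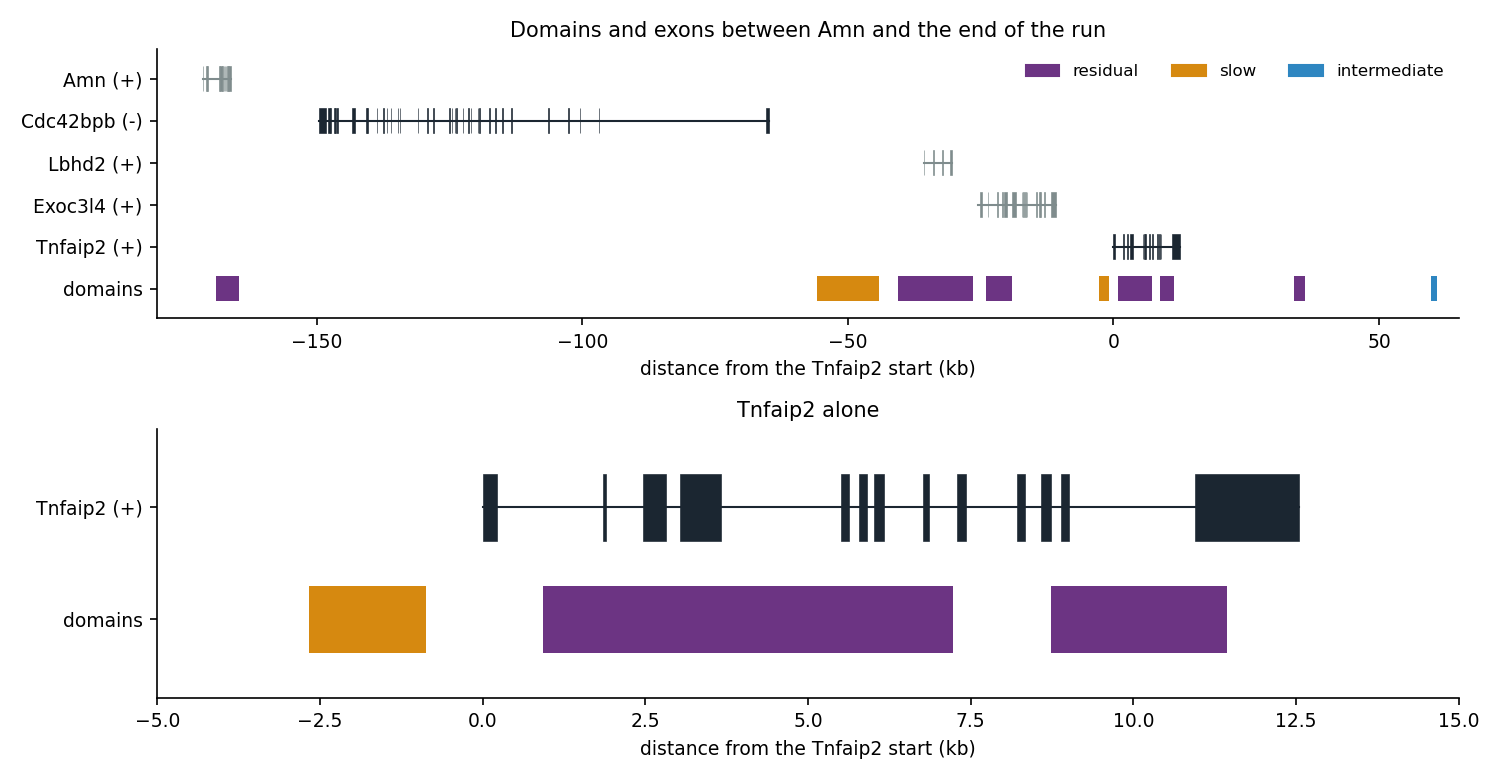
Domains (coloured by decay class) and exons (boxes) plotted by distance from the Tnfaip2 start in kb, with strands in parentheses. Upper panel, the run from Amn onwards: residual domains sit on Amn, Lbhd2, Exoc3l4 and Tnfaip2, and Cdc42bpb (37 exons) has none on its body. Lower panel, Tnfaip2 alone: residual domains of 6.3 and 2.7 kb cover most of the body, and a slow domain of 1.8 kb ends 0.868 kb before the start.

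The other 7 listed genes carried no domain, and each of their distances was to a domain outside the gene body. Traf3, an adaptor that restrains non-canonical NF-kB signalling by bringing the kinase NIK to degradation, lay closest to a residual domain. It runs over 100.8 kb at chr12:111166370-111267153, and the residual domain on Amn begins 6.447 kb past its 3′ end. Cdc42bpb, which encodes the Cdc42-bound kinase MRCK beta, is read on the minus strand over 84.7 kb at chr12:111292976-111377718. Its nearest domain was a slow one of 11.7 kb, 8.982 kb upstream of its start (chr12:111386701-111398400), and the residual domain on Amn lay 15.2 kb past its 3′ end. The domain on Amn thus lay in the space between both genes and reached into neither, and no domain met the 13 exons of Traf3 or the 37 of Cdc42bpb.

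Hsp90aa1, Dync1h1 and Ppp2r5c shared the longest interval of the stretch without a domain. Hsp90aa1 encodes the stress-inducible cytosolic HSP90 chaperone and lies on the minus strand at chr12:110690605-110702728. A residual domain of 1.8 kb (chr12:110719501-110721300) lay 16.8 kb upstream of it. Dync1h1, the heavy chain of the motor cytoplasmic dynein, spans 65.5 kb at chr12:110601452-110666945, and the same domain lay 52.6 kb downstream. Ppp2r5c encodes a B56-type regulatory subunit of the phosphatase PP2A and spans 135.9 kb at chr12:110447120-110583062. It was 136.4 kb from that residual domain and 75.3 kb from a slow domain upstream (chr12:110369101-110371800). The interval between the slow and the residual domain was 347.7 kb long and longer than 98.5% of all intervals between neighbouring domains, whose median was 29.7 kb. An interval that holds whole genes cannot be shorter than they are, so this rank depends on their lengths.

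For Tecpr2 and Rcor1 the nearest domain of any class was slow. Tecpr2, whose human counterpart binds ATG8 proteins in autophagy, spans 83.1 kb at chr12:110889264-110972394. It was the listed gene farthest from a residual domain, at 168.0 kb, and 39.9 kb from a slow domain of 0.9 kb (chr12:111012301-111013200). It shared an interval of 287.1 kb without a domain with Wdr20, Mok, Zfp839, Cinp and Ankrd9. Rcor1 encodes CoREST, the scaffold that joins the demethylase LSD1 to histone deacetylases, and spans 76.6 kb at chr12:111039351-111115901. A slow domain lay 16.4 kb downstream of it and a residual one 28.4 kb downstream (chr12:111144301-111147600). Around Rcor1 the interval was 119.1 kb, around Traf3 126.0 kb and around Cdc42bpb 108.9 kb, each longer than at least 85.3% of all intervals. Here too the length of the gene sets a lower limit to its interval.

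**Figure D2:**
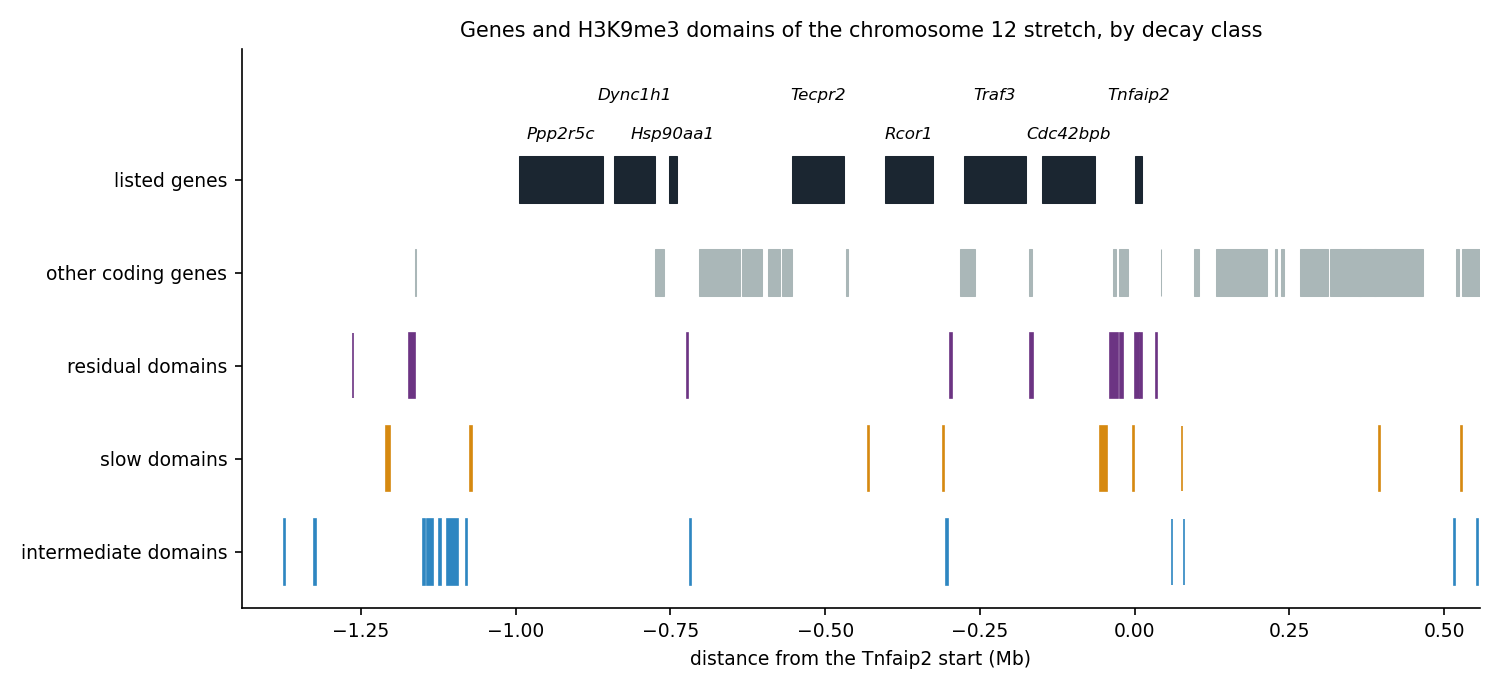
The stretch plotted by distance from the Tnfaip2 start (Mb): listed genes, the other coding genes, and the domains by class (bars have a minimum drawn width). Listed genes stand over intervals with no domain, the longest 347.7 kb, and 1 of the 8, Tnfaip2, meets residual domains.

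Counted as genes, the listed set is too small to be set apart from all coding genes. At least 1 domain of any class lay on 1 of the 8 listed genes (12.5%), against 5129 of 21938 coding genes (23.4%). A residual domain lay on 1 of 8 (12.5%), against 3.39% of all coding genes, and a count of 1 gives no basis for setting these shares apart. Distances differed by class. The median distance to the nearest residual domain was 22.6 kb for the listed genes and 841 kb for all coding genes, and the choice of the region fixes that. The median distance to the nearest domain of any class was 16.6 kb for the listed genes and 15.9 kb for all coding genes.

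**Figure D3:**
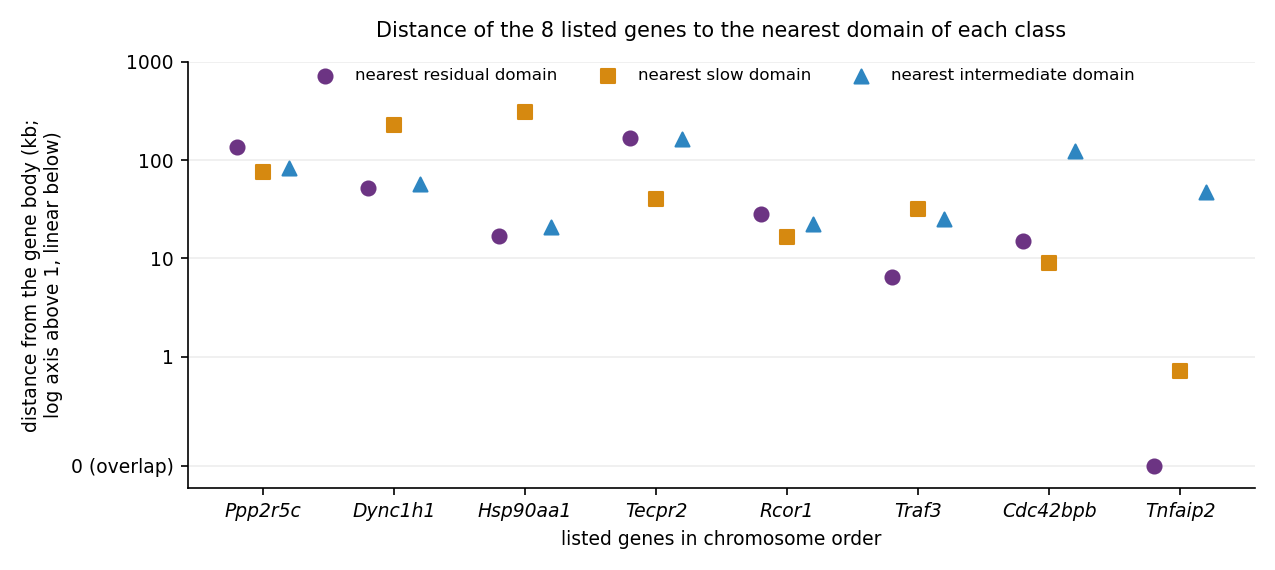
Distance in kb from each listed gene's body to the nearest residual, slow and intermediate domain, genes in chromosome order (log axis above 1 kb, linear below; 0 is an overlap). Tnfaip2 alone is at 0 for residual domains; the others lie between 6.447 kb (Traf3) and 168.0 kb (Tecpr2).

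Across the stretch, 10 domains were residual (31.2%), 9 slow (28.1%) and 13 intermediate (40.6%), and 0 were fast. Among all 42890 domains 4.57% were residual, on chromosome 12 outside the stretch 2.27%, and on autosomes other than 8 and 11 outside the stretch 2.22%. Of the 1950 residual domains outside the stretch, 764 lay on those autosomes. The last share is thus a low background, since chromosomes 8, 11, X and Y held most residual domains. Residual domains took 50.4 kb, or 39.7% of the covered length of the stretch, with a median width of 3.75 kb against 2.7 kb over all residual domains. The stretch held 10 of the 52 residual domains of chromosome 12. The domains just inside and just outside its limits were all intermediate, at chr12:110068201-110070300 and chr12:111994801-111996600 inside and at chr12:109943101-109944900 and chr12:112019101-112021800 outside.

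Residual domains were more frequent past the distal limit than past the proximal one. In the 1 Mb after the stretch, 12 of 25 domains were residual (48%), and 9 of these 12 overlapped no gene. In the 1 Mb before it, 1 of 22 was residual (4.55%), on Begain. By windows of 2 Mb, the window that follows the stretch held 13 residual domains of 50. Of 1351 windows over all chromosomes, 50 held more than the 10 of the stretch and 3 held as many, and the median was 0. With chromosomes 8 and 11 left out, 11 of 1227 windows held more. Most windows with more than the stretch thus lay on chromosomes 8 and 11, and leaving these out makes the stretch rank higher.

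**Figure D4:**
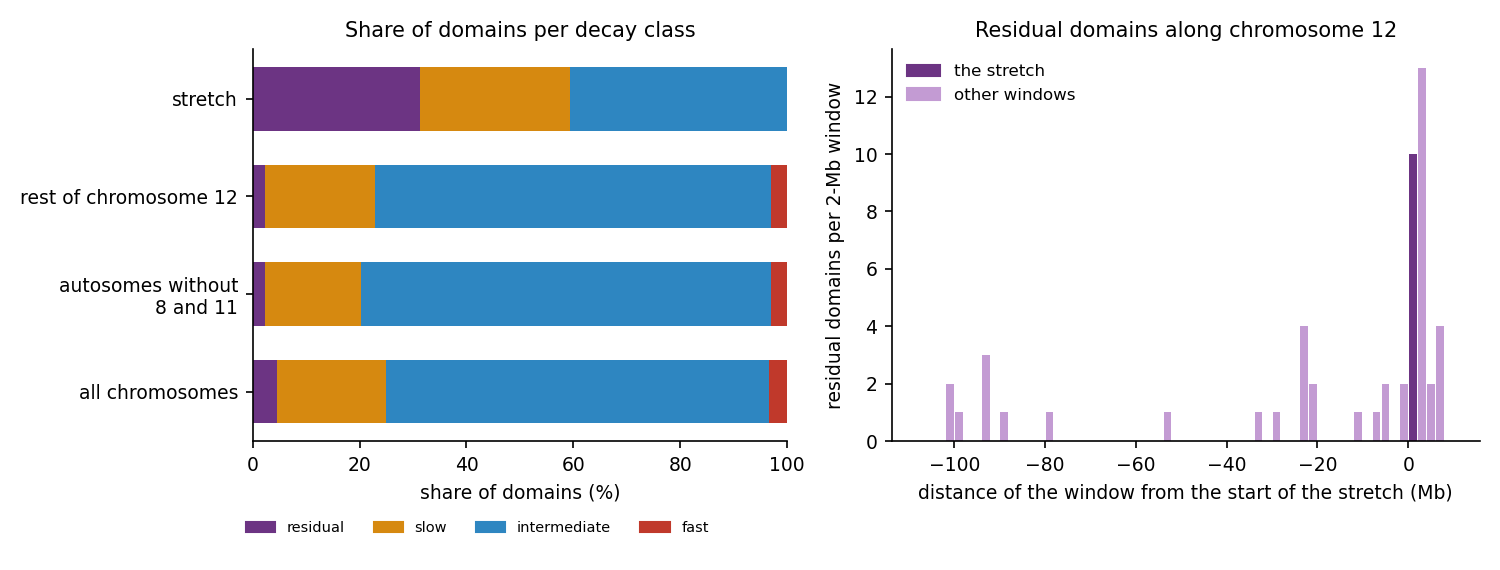
Left, share of domains in each decay class (%) for the stretch, the rest of chromosome 12, autosomes other than 8 and 11 outside the stretch, and all chromosomes: the residual share is 31.2% in the stretch and 4.57% over all. Right, residual domains per 2-Mb window along chromosome 12, by distance from the start of the stretch: the stretch holds 10 and the next window 13.

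Of the 10 residual domains of the stretch, 8 met a gene of any type, against 60.6% of all residual domains. An exon of a coding gene was met by 6 of the 10 residual domains, 2 of the 9 slow ones and 0 of the 13 intermediate ones. By the midpoint of the domain in place of any overlap, 1 of the 10 residual domains met such an exon. Over the genome 28.3% of residual domains met one by any overlap, with 7.2% of slow and 5.46% of intermediate ones. A promoter, taken as 1 kb to either side of a coding transcript start, was met by 4 of the 10, at Dio3, Lbhd2, Exoc3l4 and Tnfaip2, against 16.8% of all residual domains. At Exoc3l4 and Tnfaip2 the domain began after the gene's start and held a later transcript start. Promoters were also met by 2 of the 9 slow domains, at Tnfaip2 and Tdrd9, and by 0 of the 13 intermediate ones. Over the genome these shares were 2.92% of slow and 2.18% of intermediate domains. Domains on genes share those genes, since 2 of the 6 on exons lay on Tnfaip2, so the exon count rests on 5 genes.

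The fifth gene was Dio3, near the proximal end of the stretch, which encodes the deiodinase that inactivates thyroid hormone and is imprinted, with expression mainly from the paternal copy. Its single exon lies at chr12:110279068-110281097, and a residual domain of 9.6 kb (chr12:110270701-110280300) covered its whole coding sequence and began upstream of the gene, at -8.367 kb from its start. The same domain held the whole of the noncoding gene Dio3os and of the microRNA gene Mir1247, both on the opposite strand. The mature microRNAs of Mir1247 are printed because they lie whole inside that domain, from RefSeq's GRCm38.p6 annotation, with the seed (bases 2 to 8) in capitals. Their seeds differ.
miR-1247-5p: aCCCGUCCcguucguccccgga
miR-1247-3p: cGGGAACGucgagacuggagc
Past Dio3 came 5 of the 13 intermediate domains of the stretch, the last at chr12:110362501-110363700, before the slow domain upstream of Ppp2r5c.

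Slow and intermediate domains met 2 further coding genes. Ppp1r13b, which encodes the p53-binding protein ASPP1, held a slow domain of 2.4 kb over exons 9 and 10 of 18 (chr12:111836701-111839100). Tdrd9, a helicase needed to silence transposons in the male germ line, held a slow domain of 1.5 kb over its first exon (chr12:111970501-111972000) and 3 intermediate ones inside introns, of which 2 lay past the end of the stretch. In all, 7 of 33 coding genes of the stretch met a domain (21.2%) and 5 met a residual one (15.2%). Of 44 genes of any type other than protein-coding, 9 met a domain and 4 a residual one, against 13.7% and 1.38% of all 33475 such genes. Besides Dio3os and Mir1247 these were the long noncoding Gm34785, with 14.8% of its body in a residual domain, and Gm40578, read antisense to the end of Tnfaip2, with 2 residual domains over 9.52%.

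Residual domains of the stretch lay in mostly unique sequence, with 1 exception. The unique 31-mer share, the percentage of 31-base words that occur once in the genome, was part of the choice of region and is given as a description. It ran from 66.7% to 100% with a median of 96.4% over the 10 residual domains, 95.8% over the slow and 86.1% over the intermediate ones. The lowest value belonged to the domain upstream of Hsp90aa1 (chr12:110719501-110721300), and the other 9 lay at or above 90.9%. Over all chromosomes the medians were 95.2% for residual, 40.65% for slow and 50.0% for intermediate domains. Of the 9 slow domains of the stretch, 7 lay at or above 88.9%, and the other two at 22.2% beside Ppp2r5c (chr12:110369101-110371800) and 56.4% between Cdc42bpb and Lbhd2 (chr12:111386701-111398400).

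By median, repeat content in the stretch ran from residual, the lowest, through slow to intermediate domains, with overlapping ranges. The soft-masked share, which marks known repeats, had a median of 16.4% in the residual domains of the stretch, 29.0% in the slow and 45.2% in the intermediate ones, against 17.04%, 74.0% and 72.3% over all chromosomes. In the stretch it ran from 6.47% to 61.4% in residual, 6.2% to 94.3% in slow and 14.6% to 72.8% in intermediate domains. Median GC content was 52.6% in the residual domains of the stretch and 47.8% in all residual domains. The CpG observed over expected ratio had a median of 0.211 in residual, 0.198 in slow and 0.211 in intermediate domains of the stretch. The highest was 0.600 at Amn, and the wider Tnfaip2 domain stood at 0.315. Mapping of reads to repeated copies, which is not described in the sources used here, touches domains low in unique words most, and its part in the classes was not tested.

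**Figure D5:**
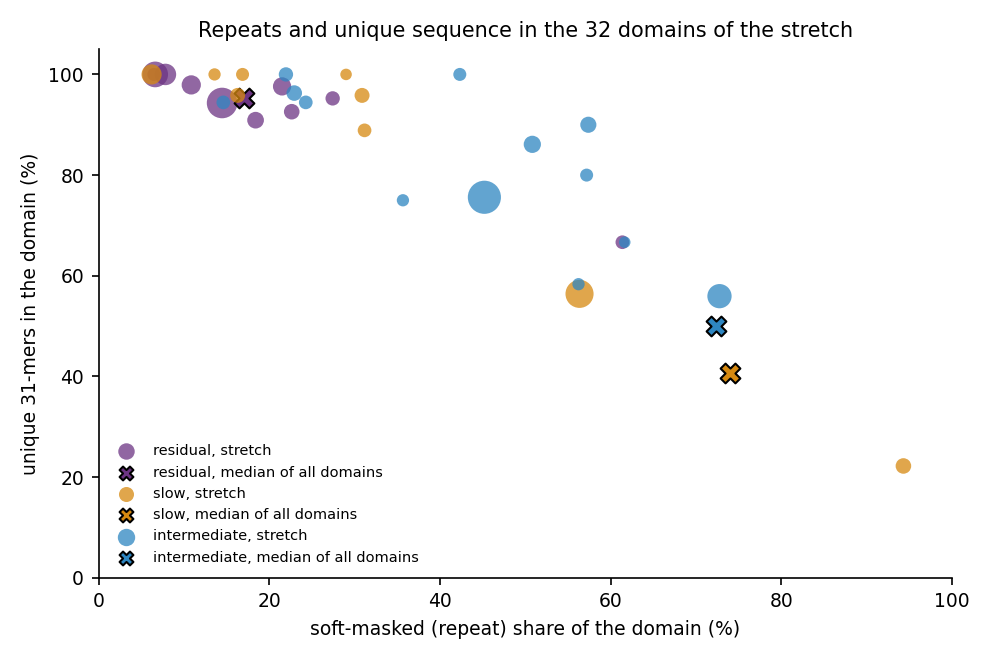
Each dot is 1 of the 32 domains of the stretch, by soft-masked share (%) and unique 31-mers (%), sized by width and coloured by class; crosses are medians of all domains of a class. Residual domains crowd at the upper left, with 1 exception at 66.7% unique words, and slow domains of the stretch lie mostly above the slow median of 40.65%.

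Promoters of the 6 listed genes without a domain that had a promoter entry all lay above the median of coding genes in CpG. Hsp90aa1 had no entry. Over the 300 bases around the start (250 before and 50 after, RefSeq GRCm38.p6), the CpG observed over expected ratio was 1.20 at Traf3, 1.12 at Cdc42bpb, 1.03 at Dync1h1, 0.876 at Rcor1, 0.658 at Ppp2r5c and 0.623 at Tecpr2. Their median was 0.954. Tnfaip2 stood at 0.745, between Rcor1 and Ppp2r5c, and Dio3 at 0.701. Both carry residual domains and also lay above the median of all coding genes, while Amn, Lbhd2 and Exoc3l4 lay below it. The 5 coding genes with a residual domain had a median of 0.515, with the lowest value, 0.156, at Exoc3l4, against 0.584 over 16522 coding genes. Over 502 coding genes elsewhere with a residual domain the median was 0.549, and over the genes of the stretch without any domain 0.865. The ranges of genes with and without a residual domain overlapped, 0.156 to 0.745 in genes with one and 0.127 to 1.20 in the 22 genes of the stretch without any domain.

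The listed genes have relatives in the same pathways and complexes across the genome. Of 142 genes in 8 lists built around the functions of the listed genes and holding them, 23 met a domain and 3 a residual one, against 23.4% and 3.39% of all coding genes. The 3 were Tnfaip2 itself, Exoc3l4 in the same stretch, and Hspa8, the constitutive HSC70 chaperone on chromosome 9. Without the 8 listed genes, 22 of 134 met a domain and 2 a residual one. Counts this small show nothing particular to these families. The residual domain on Hspa8 took 2.1 kb, or 23.1% of the gene body. In 6 of the lists no gene met a residual domain. Domains of other classes met 5 of 17 PP2A subunit genes, 5 of 26 dynein and dynactin genes, 1 of 19 autophagy genes and 2 of 13 genes of the CoREST complex and its partners. They met 1 of 21 TRAF and NF-kB genes and 3 of 15 genes for Cdc42 and its kinases. Among 15 genes for HSP90 and its partners, Hspa8 was the only one with a domain. Among 16 genes of the exocyst and of tumour necrosis factor response, the exocyst subunit genes Exoc4 and Exoc6 and the ubiquitin-editing enzyme gene Tnfaip3 met slow or intermediate domains. The lists were drawn up with earlier results of these data known, so they support no statement about the families.

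Elsewhere in the genome, the 2-Mb windows with the most residual domains were led by X. The window at 32 to 34 Mb of X, with Btbd35f genes, held 62 residual domains of 120. The window at 20 to 22 Mb of chromosome 8 held 48 of 104, and that at 4 to 6 Mb of X held 41 of 93. The window at 84 to 86 Mb of chromosome 1, with C130026I21Rik and Sp140, and the one at 112 to 114 Mb of chromosome 11, with Sdk2, each held 27 of 56. With chromosomes 8 and 11 left out, the windows at 2 to 4 and 30 to 32 Mb of X came next, with 23 of 49 and 22 of 72. By number of residual domains on its body, Gm20388 led the coding genes with 23, followed by Asic2 with 17, C130026I21Rik with 15, Cdh13 with 11 and Dlgap2 with 9. A longer gene has room for more domains, so these counts depend on length. Gm20388 spans 4435 kb with 3.82% of it residual, and Asic2 spans 1088 kb with 8.86%. Zfhx3, Sdk2, Gm37013, Gm37388 and Gm42416 had 7 each, and the last 3 of these share the same domains. Of these 10, C130026I21Rik had the largest residual share, 44.7%. That was 124.3 kb of residual sequence in a gene of 277.9 kb. Tnfaip2 held 9 kb in 12.55 kb, or 71.7%, so shares of genes this unlike in length do not rank them. With chromosomes 8 and 11 left out, Pcdhgb2, Pcdhgb1, Pcdhga1, Pcdhga2, Pcdhga5 and Pcdhga4, overlapping genes of the gamma protocadherin cluster, followed with 5 each on domains they share. These genes also overlap Gm37013, Gm37388 and Gm42416 on chromosome 18, so all of them mark the same region.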

How the data were processed

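The series measured H3K9me3 and HP1β by ChIP-seq, with matched inputs and a Drosophila spike-in (1.5 µg beside 20 µg of chromatin per the labels' protocols). The deposited table used here gives each H3K9me3 domain a position and a decay class in words made by the authors over the time course, with 0 columns of sample values. Bowtie2 2.3.4.1, SAMtools 1.1, deepTools and bedtools are named in the submitters' processing notes, with no roles. The sources used here do not give how domains were called and classed or how the spike-in was used to scale signal. Samples were grouped by antibody or input and time from their titles, and no comparison between samples was possible from a table with 1 class per domain, so no test was run.

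All 43039 domains lie on a 300-bp grid, and the 42890 on chromosomes 1 to 19, X and Y were used. Domains were set against GENCODE vM21 genes and the GRCm38.p6 sequence (mm10); 0 domains ran past a chromosome end. An overlap needed 1 bp. Exons were those of protein-coding transcripts, merged and numbered from the gene's start. Words of 31 bases were read every 100 bp and counted over the primary assembly. Promoters, microRNAs and printed sequence come from RefSeq (GRCm38.p6). Promoter sequences were matched by symbol for 16522 coding genes. Routines for overlap and word counts were tested on simulated data. Python 3.11.15, numpy 2.4.6, pandas 2.3.3 and numba 0.67.0 were used. Depth per domain is unknown.

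Members and lists were chosen with earlier results of these data known. Genes named are the 8 listed ones, other coding genes of the stretch with a domain, list members with a residual domain, and the 10 genes and 5 windows of 2 Mb elsewhere with most residual domains, with and without chromosomes 8 and 11. List members with other domains, and genes that share an interval or lie at the edge of the stretch, were named after their values were seen.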

Additional observations from a re-analysis of the deposited data

How the results depend on the processing

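Of 25 alternatives, 17 kept their result within the limit set for it, and 8 did not. Residual domains numbered 10 in the stretch, 23 when it was widened by 1 Mb on each side, and 7 between the first and last listed gene, where their share was 53.8% in place of 31.2%. Joining neighbours of a class less than 5 kb apart left 1 in place of 2 residual domains on the listed genes. Widening the listed genes by 5 kb left 1 gene with a residual domain, and widening by 10 and 20 kb, chosen after seeing the data, gave 2 and 4. By midpoint, 1 in place of 6 residual domains of the stretch lay on a coding exon, since exons are short beside a domain. The median unique share was 93.4% with words of 24 bases, 98.96% with 50 and 95.7% with words read at every base (chosen after seeing the data), against 96.4%. No paired analysis was possible because the table has no sample values, and leaving out replicates was not possible for the same reason. Depth and the spread between cultures are unknown for every class given here.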
